A study of Danio rerio with 6 samples.

Results

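The regions described here are 13402 stretches of open chromatin that were called in the 2 deepest libraries of non-endothelial zebrafish nuclei and in none of the other 4 libraries of the study. They were found by merging the peaks of all 6 lists wherever they overlapped by at least 1 bp. Of the 187225 union regions that resulted, 7.16% held a peak in GFPminus replicate 1 and in GFPminus replicate 2, and none in GFPminus replicate 3 or in any GFPplus list. The regions were chosen by the deposited peak calls, so their number and their strength are given as descriptions. They are called deep-list regions below.

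All 6 libraries came from deyolked Tg(fli1a:egfp) embryos at 24 hours post fertilization, in which fli1a regulatory sequence drives GFP in endothelial cells. GFPminus libraries (3, labelled as non-endothelial cells) and GFPplus libraries (3, labelled as endothelial cells) were each made from 20000 nuclei. The GFPminus fraction is what remains of a whole embryo once the GFP-positive fraction is sorted away, so it mixes many tissues. Whether either sort was pure was not examined, because peak lists hold no expression values.

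ATAC-seq reports open chromatin through the insertion of sequencing adapters by a transposase. Promoters of broadly used genes tend to be open in most cell types and give tall, wide peaks. Many distal enhancers are open in 1 tissue or a few, and in nuclei of a whole embryo such an element can be open in a small share of the cells, which gives a low peak. A peak caller keeps a low peak more readily in a deeply sequenced library.

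The lists differed greatly in length and depth. GFPminus replicates 1 and 2 held 113476 and 110663 peaks, and GFPminus replicate 3 held 33437. GFPplus replicates 1, 2 and 3 held 72695, 73716 and 50396. The background rate is the mean number of fragments that the caller counted over any base of the genome. It rises with depth and with the length counted for each fragment, which may differ between libraries. The rate was 1.78 and 1.83 in GFPminus replicates 1 and 2, and 1.60 and 1.59 in GFPplus replicates 1 and 2. In GFPminus replicate 3 and GFPplus replicate 3 it was 0.804 and 0.839. The lists required to hold a peak were thus those with the highest background rates, and depth and fraction cannot be told apart in the rule. The deep-list regions held 13484 peaks of GFPminus replicate 1, or 11.9% of that list, and 13518 peaks of GFPminus replicate 2, or 12.2%.

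Peaks in both deep GFPminus lists were found in 65575 union regions, and 20.4% of these had no peak elsewhere. That made the deep-list regions the most frequent combination after regions called in all 6 lists, which numbered 20275 (30.9%). A further peak in GFPminus replicate 3 alone, which makes a region called in every GFPminus list and in no GFPplus list (a GFPminus-only region), was found in 1594 regions. A further peak in GFPplus replicate 2 alone was found in 5211 regions, in GFPplus replicate 1 alone in 3448 and in GFPplus replicate 3 alone in 893. These regions lie just outside the rule. GFPplus replicates 1 and 2 each gave more of them than GFPminus replicate 3, and GFPplus replicate 3 gave fewer.

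**Figure D1:**
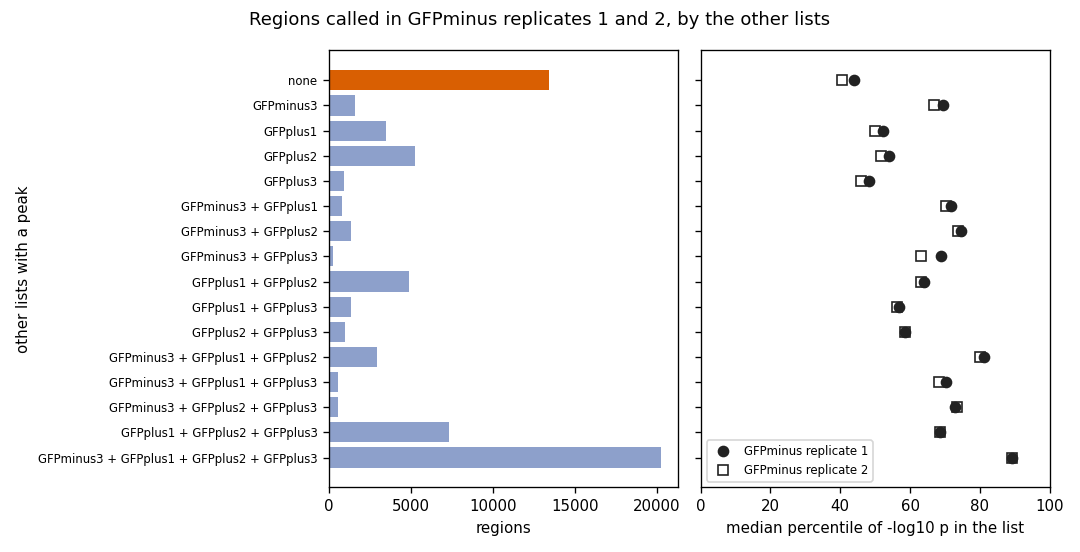
Left, the number of union regions with peaks in GFPminus replicates 1 and 2, split by which of the other 4 lists also held a peak (none, in orange, marks the 13402 deep-list regions). Right, the median percentile of their strongest peaks by −log10 p within each deep GFPminus list, which was lowest for the deep-list regions (44.0 and 40.4) and highest for regions called in all 6 lists (89.3 and 89.1).

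Deep-list regions were of lower than middle strength, but they were not the weakest peaks of their lists. Strength was ranked within a list by the authors' −log10 p, with 100 for the strongest peak. Their peaks had a median percentile of 44.0 in GFPminus replicate 1 (middle 50% from 23.1 to 60.3) and of 40.2 in GFPminus replicate 2 (21.4 to 58.1). Regions called in a single deep list were lower, with medians of 25.7 for GFPminus replicate 1 alone and 25 for GFPminus replicate 2 alone. GFPminus-only regions had medians of 68.7 and 65.6 in these lists, and regions called in all 6 had 88.0 and 87.6. A peak that is found in more lists has to be stronger on average for the caller to find it there, so this order is tied to the choice of the regions.

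Few of these regions reached the upper end of either list. Of their peaks in GFPminus replicate 1, 61.0% were at or under the median of the list, 9.84% were in the lowest 10% and 0.111% were in the highest 10%. In GFPminus replicate 2 the corresponding shares were 63.6%, 11.2% and 0.0888%. No deep-list region had a peak in the top 1% of a list. Both peaks were at or under the median in 44.4% of the regions, both were above it in 20.2%, and the lists differed in the other 35.3%. The percentiles in both lists were loosely related across regions (Spearman's rho 0.32, Pearson's r 0.33, over 13402 regions that are not independent replicates, with the lower end of both lists set by the same caller threshold).

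**Figure D2:**
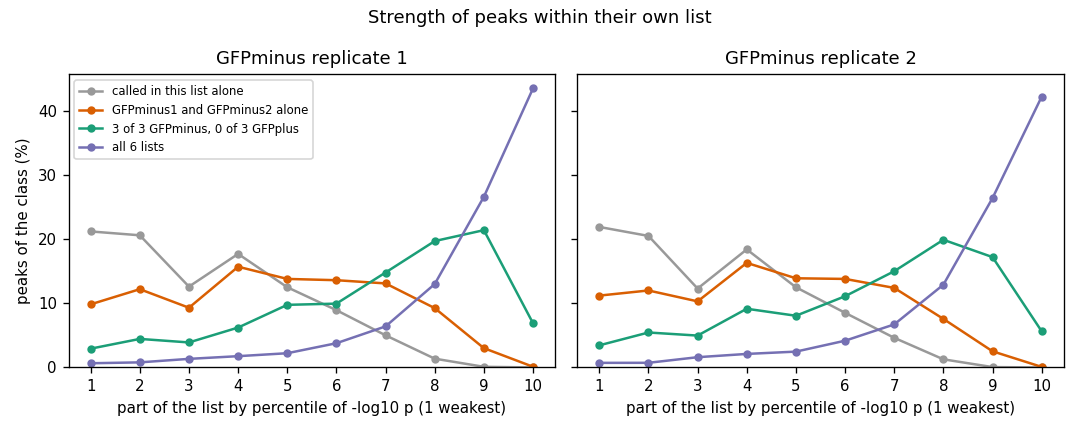
Each panel divides 1 deep GFPminus list into 10 parts by percentile of −log10 p (horizontal axis, weakest first) and shows the percentage of each class's peaks in every part (vertical axis); tied values make the parts slightly unequal, and part 3 holds 7.89% and 7.93% of the lists. Peaks of deep-list regions (orange) spread over the first 8 parts and nearly vanish in the last, where 43.5% and 42.2% of the peaks of regions called in all 6 lists lie.

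In fragments, the peaks were small in both libraries. The summit pileup is the number of fragments that the caller counted over the highest base of a peak, and it was recovered for each of these peaks from the deposited fold and −log10 p. Its median was 12 fragments in GFPminus replicate 1 (middle 50% from 10 to 15, range 7 to 60) and 12 in GFPminus replicate 2 (10 to 14, range 7 to 54). The authors' fold enrichment had a median of 4.01 in GFPminus replicate 1 and 3.88 in GFPminus replicate 2. Regions called in all 6 lists had median pileups of 30 and 29 fragments in the same libraries. The pileups, each divided by its library's background rate, were within 1.5-fold of each other in 88.8% of the deep-list regions. Both had to pass the caller's threshold, and regions called in all 6 lists were taller, so this closeness is tied to the choice of the regions. The same share was not computed for other classes. For scale, a pileup of 12 fragments has an exact Poisson 95% interval of 6.20 to 21.0 fragments, which covers counting error only.

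**Figure D3:**
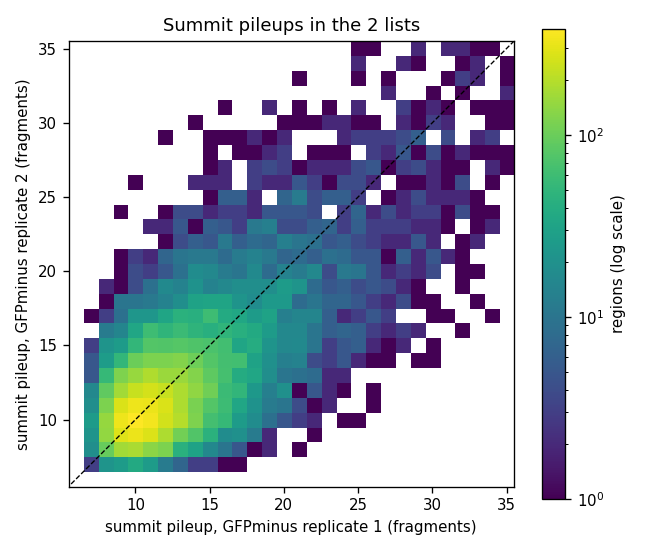
Each cell counts the deep-list regions with a given summit pileup in GFPminus replicate 1 (horizontal axis, fragments) and in GFPminus replicate 2 (vertical axis, fragments), coloured on a log scale, with equality as a dashed line. The commonest pair was 10 fragments in both (385 regions), and 88 regions with a pileup above 35 fragments in either library lie outside the plot.

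The depth of the other 4 libraries bears on what the missing calls can show. Scaled by the ratio of the background rates, the pileups of the deep-list regions would have had a median of 10.6 fragments in GFPplus replicate 1 and 10.5 in GFPplus replicate 2. The lowest pileup of a peak called against the genome-wide background was 7 in each of those lists, and 92.1% of the deep-list regions reached it from both of their pileups. This is a lenient mark, since the 5th percentile of pileups called against that background was 8 in both lists. Of the peaks in deep-list regions, 38.7% in GFPminus replicate 1 and 37.5% in GFPminus replicate 2 were called against the genome-wide background. The others had a higher local background, where a call needs more fragments. Regions called in GFPplus replicate 1 alone had a median pileup of 11 fragments, and those in GFPplus replicate 2 alone of 10. In the shallow libraries the scaled medians were 5.33 fragments for GFPminus replicate 3 and 5.56 for GFPplus replicate 3. There the lowest called pileup was 5, and the 5th percentile at the genome-wide background was 6. Of the regions, 37.5% reached the lowest called pileup from both pileups in GFPminus replicate 3, and 51.5% in GFPplus replicate 3. Regions called in GFPminus replicate 3 alone had a median pileup of 7. Both pileups fell short of the lowest called pileup in 30.4% of the regions for GFPminus replicate 3 and in 16.5% for GFPplus replicate 3, and the rest reached it from 1 of them. Where both fell short, an opening of the same height had an expected pileup below the lowest called one. Counting error could still lift such a pileup over it, and whether depth accounts for the missing calls was not tested. The scaled values lean high, because the regions were chosen for having peaks in the libraries that supply them. They also carry any difference between libraries in the length counted for each fragment. A pileup over the threshold is not enough for a call, which also needs a minimum length. The shortest listed peak was 160 bp in GFPminus replicate 3, and 115 to 116 bp in the GFPplus lists. Peaks of deep-list regions had median widths of 188 and 177 bp in GFPminus replicates 1 and 2, with lower quartiles of 135 and 129 bp. The part of length in the missing calls was not tested.

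Beside deep-list regions, peaks of GFPminus replicate 3 were about as frequent as beside all union regions without such peaks. Peaks of each GFPplus list were somewhat less frequent there than beside all union regions without peaks of that list. The deep-list regions are themselves part of those union regions. Within 100 bp of a deep-list region, a peak of any of the 4 other lists was found for 418 regions (3.12%), and within 1000 bp for 2650 (19.8%). Over all 79685 union regions that lack a peak of these 4 lists, the shares were 3.57% and 20.5%. Per list, 6.60% of deep-list regions had a peak of GFPminus replicate 3 within 1000 bp, against 6.78% of all union regions that lack a peak of that list. For GFPplus replicate 3 the shares were 7.25% and 9.70%, for GFPplus replicate 1 12.2% and 13.0%, and for GFPplus replicate 2 13.2% and 14.5%. Within 100 bp they were 0.515% and 0.555% for GFPminus replicate 3 and 1.19% and 1.67% for GFPplus replicate 1. For GFPplus replicate 2 they were 1.34% and 1.75%, and for GFPplus replicate 3 0.537% and 0.791%.

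Deep-list regions were narrower than GFPminus-only regions but wider than union regions at large, and the peaks of both libraries usually covered each other. The median width was 252 bp (middle 50% from 199 to 328 bp, longest 1162 bp), against 392 bp for GFPminus-only regions and 589 bp for regions called in all 6 lists, where more merged peaks widen a region. Over all union regions it was 210 bp. It was 143 bp for regions of GFPminus replicate 1 alone and 136 bp for those of GFPminus replicate 2 alone. Regions called in GFPplus replicates 1 and 2 and nowhere else had 233 bp. All but 193 regions consisted of exactly 1 peak per list. The shorter peak was covered by the longer to a median of 94.3%, and by at least 50% in 86.6% of the regions. At the edge of the overlap rule, the strongest peaks of both lists shared a single base in 19 regions. They shared 10 bp or fewer in 240, which may include regions joined only through a further peak. Just outside the overlap rule, 110 regions of GFPminus replicate 1 alone had a region of GFPminus replicate 2 alone less than 10 bp away.

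The rule asks for overlap and not for a shared summit. The summits of the strongest peak in each list were a median of 55 bp apart, and 75.1% were within 100 bp of each other. In GFPminus-only regions the same summits were a median of 50 bp apart, and in regions called in all 6 lists 26 bp apart with 86.0% within 100 bp. The median pileups of these strongest peaks were 12 and 12 fragments in deep-list regions and 17 and 16 in GFPminus-only regions. In regions called in all 6 lists they were 32 and 32, against 30 and 29 over all peaks of those regions. The part of pileup in the offset was not tested.

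The 5 strongest deep-list regions, taken by the lower of their −log10 p values, stood far above the median of 12 fragments. The first lay on chromosome 15 at 38019374 to 38019587 (Zv9, as all positions here). It had a pileup of 37 fragments in GFPminus replicate 1 (exact Poisson 95% interval 26.1 to 51.0) and of 36 in GFPminus replicate 2 (25.2 to 49.8). Its fold was 8.23 and 7.90, and its −log10 p was 25 and 23.7. It still ranked only 9906 and 10142 in these lists, and a region called in all 6 lists was 3011 bp away.

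The next strong region lay on chromosome 2 at 20162591 to 20162948, with 34 fragments in GFPminus replicate 1 and 29 in GFPminus replicate 2. On chromosome 12 at 33041068 to 33041407 the pileups were 32 and 27 fragments, and the fold was 11.6 and 9.31. On chromosome 11 at 37054752 to 37054993 they were 32 and 35 fragments, and another deep-list region had its midpoint only 504.5 bp away. On chromosome 13 at 32988967 to 32989312 they were 28 and 38 fragments, with the highest fold of the set in GFPminus replicate 2, 11.1. In each of the 5 the Poisson intervals of both libraries overlapped. None of the 5 lay within 10 kb of a GFPminus-only region; the nearest such distance was 44427.5 bp, for the region on chromosome 12. What genes lie there was not analysed here, since no annotation of Zv9 was used.

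Deep-list regions broadly followed the distribution of union regions over the genome, with small departures. They made up between 5.95% (chromosome 3) and 8.14% (chromosome 17) of the union regions of a numbered chromosome, with a median of 7.17% over 25 chromosomes. Divided into 5 stretches of equal length from the first to the last union region, the chromosomes had shares of 6.91%, 6.53%, 7.29%, 7.55% and 7.38% from start to end. The stretch with 6.53% had a Wilson 95% interval of 6.27 to 6.81%, and the stretch with 7.55% had 7.27 to 7.85%. Neither includes the 7.16% of the whole union, but the intervals treat regions as independent, which neighbouring regions are not. The stretches at both ends held 21.3% and 22.8% of all deep-list regions, and 22.1% and 22.1% of all union regions. On chromosome 4, whose long arm is known as repeat-rich and heterochromatic, the share was 8.55% beyond 25 Mb (124 of 1450 union regions, Wilson 95% interval 7.22 to 10.1%) and 6.42% up to there (229 of 3567, 5.66 to 7.27%). These intervals overlap slightly. The first lies just above the 7.16% of the whole union and the second includes it, and no test was run. Sequences outside the numbered chromosomes held 503 deep-list regions, 7.80% of their union regions.

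Single windows of 100 kb held up to 8 deep-list regions. Of 13098 windows with any union region, 5597 held none, 4152 held 1 and 4 held 8. The densest by the fixed order was on chromosome 7 at 41700001 to 41800000, where 8 of 20 union regions were deep-list regions, 2 were GFPminus-only, and none was called in all 6 lists or was GFPplus-only, meaning called in every GFPplus list and no GFPminus list. The next was the first window of chromosome 5, from 1 to 100000, with 8 of 28 and no GFPminus-only region. On chromosome 22 at 40400001 to 40500000 it was 8 of 23, again with no GFPminus-only region. The window that tied with them was on chromosome 4 at 59800001 to 59900000, with 8 of 31.

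The share of deep-list regions with a GFPminus-only region nearby was above that of all union regions, and the share with a GFPplus-only region nearby was below it. A GFPminus-only region had its midpoint within 10 kb for 503 deep-list regions, or 3.75% (Wilson 95% interval 3.44 to 4.09%), against 2.71% of all union regions. For the 2285 GFPplus-only regions the order was the opposite, with 425 deep-list regions or 3.17% (2.89 to 3.48%) against 3.99% of all union regions. The great majority of deep-list regions thus had neither kind within 10 kb, and 21 regions had neighbours of both kinds. These intervals treat regions as independent, which neighbouring regions are not, and no test was run on them.

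High shares near GFPminus-only regions were not confined to the deep-list regions. Regions called in all 3 GFPminus lists and in 1 or 2 GFPplus lists had 4.70% near a GFPminus-only region (Wilson 95% interval 4.21 to 5.25%) and 3.31% near a GFPplus-only region. Regions called in both deep GFPminus lists and 1 GFPplus list, just outside the rule, had 3.18% (2.85 to 3.55%) and 3.56%. Classes called in 1 deep GFPminus list had lower shares near a GFPminus-only region. Regions called in GFPminus replicate 1 alone were within 10 kb of a GFPminus-only region in 2.55% of cases, and those of GFPminus replicate 2 alone in 2.27%. Regions called in GFPminus replicate 1 and a single GFPplus list had 2.60%, and those of GFPminus replicate 2 and a single GFPplus list 2.36%. A low share near a GFPplus-only region was not particular to the deep-list regions (3.17%). It was 2.97% for GFPminus replicate 1 alone and 2.82% for GFPminus replicate 2 alone. With a single GFPplus list added, it was 3.69% for either replicate. Regions called in GFPplus replicates 1 and 2 and nowhere else mirrored the pattern, with 2.07% near a GFPminus-only region and 8.12% (Wilson 95% interval 6.95 to 9.45%) near a GFPplus-only region. There were 1836 of these, against 13402 deep-list regions. GFPminus-only regions themselves had another of their kind within 10 kb in 5.90% of cases. Deep-list and GFPminus-only regions share 2 of the lists that define them, so any local feature of those 2 libraries enters both; its part in the result was not tested.

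**Figure D4:**
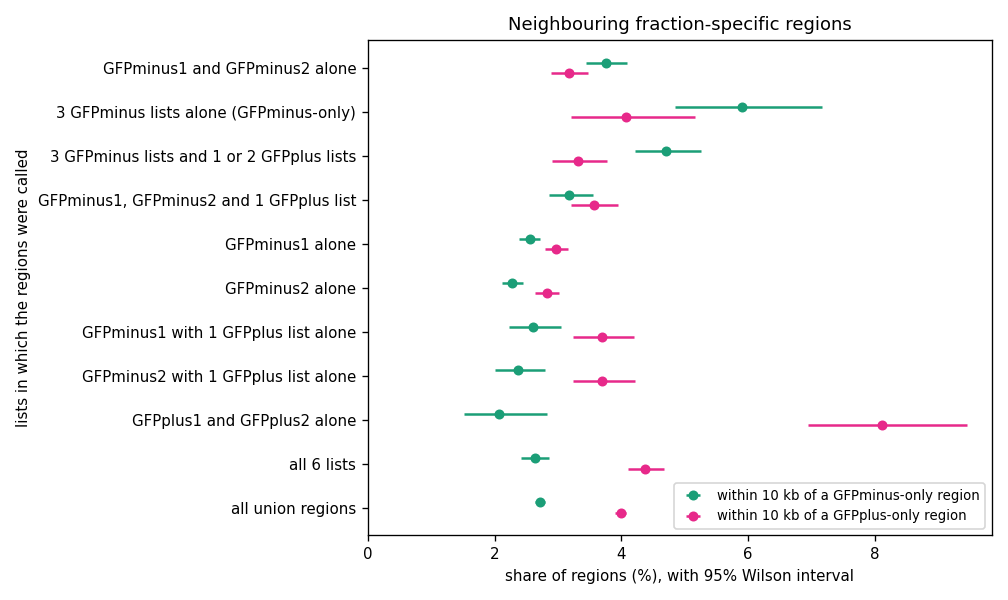
Share of regions in each class (horizontal axis, percent, with Wilson 95% intervals as bars) with the midpoint of a GFPminus-only region (green) or of a GFPplus-only region (pink) within 10 kb. The green share is the higher in deep-list regions (top row, 3.75% against 3.17%) and in both classes called in every GFPminus list and at most 2 GFPplus lists; in the other 8 classes shown the pink share is the higher.

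The order was the same at shorter and longer distances and on most chromosomes. Within 1 kb the share of deep-list regions near a GFPminus-only region was 0.418% (56 regions), against 0.245% of all union regions. From 1 to 10 kb it was 3.34% against 2.47%, and within 50 kb it was 16.0% against 12.4%. For GFPplus-only regions the shares were 0.119% against 0.338% within 1 kb and 14.4% against 16.9% within 50 kb. The share within 10 kb of a GFPminus-only region exceeded that of all union regions on 22 of 25 chromosomes. The exceptions were chromosomes 12, 20 and 21. It was highest on chromosome 22, at 6.07% (21 of 346), and on chromosome 9, at 6.03% (39 of 647).

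**Figure D5:**
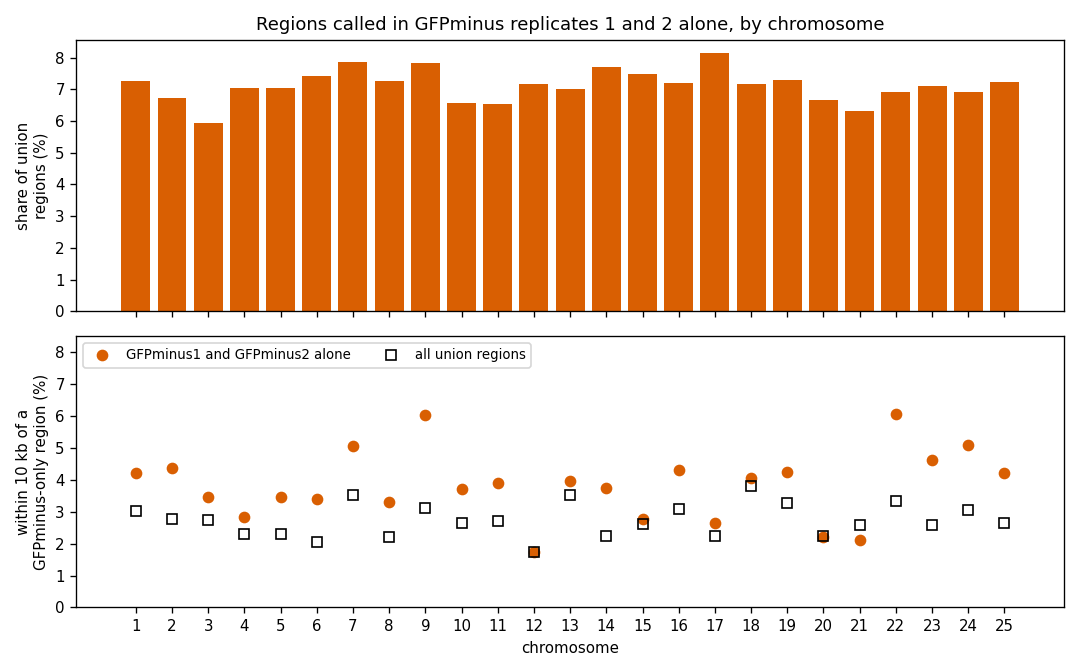
Top, deep-list regions as a percentage of the union regions of each numbered chromosome. Bottom, the percentage of deep-list regions (filled circles) and of all union regions (open squares) within 10 kb of a GFPminus-only region; the circle is above the square on 22 of 25 chromosomes.

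The share near GFPminus-only regions was highest among the strongest deep-list regions. The deep-list regions were divided into 4 groups of equal size by the lower of their percentiles, from weakest to strongest. The shares within 10 kb of a GFPminus-only region were 2.78%, 3.01%, 3.40% and 5.82% in that order. The strongest group, with percentiles of 45.9 to 90.8, had a Wilson 95% interval of 5.08 to 6.66%. That interval treats regions as independent, which neighbouring regions are not, and no test was run between the groups. The shares near a GFPplus-only region were 3.04%, 3.31%, 2.63% and 3.70%, and the shares near a region called in all 6 lists were 25%, 24.4%, 21.9% and 33.7%, so the strongest group had more neighbours of other kinds too. In regions of GFPminus replicate 1 alone the 4 groups had 2.53%, 2.48%, 2.53% and 2.66% near a GFPminus-only region. In regions of GFPminus replicate 2 alone they had 1.91%, 2.33%, 2.41% and 2.43%. In regions of GFPplus replicates 1 and 2 alone they had 1.09%, 1.53%, 1.74% and 3.92%, so a higher share in the strongest group was seen there as well. Among the 5020 deep-list regions whose scaled pileups reached the lowest called pileup in all 4 other libraries, the share was 5.84% (interval 5.22 to 6.52%). Their share near a GFPplus-only region was 4.10% (3.59 to 4.69%), not below the 3.99% of all union regions.

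Seen from the other side, 424 of the 1594 GFPminus-only regions (26.6%, Wilson 95% interval 24.5 to 28.8%) had at least 1 deep-list region within 10 kb. Of the GFPplus-only regions 17.7% did (16.2 to 19.3%), of the regions called in all 6 lists 19.2%, and of all union regions 20.4%. Another deep-list region was within 10 kb for 23.7% of the deep-list regions themselves. Regions called in 1 list alone give a view of the libraries that the rule required to be silent. Of the 1629 regions of GFPminus replicate 3 alone, 21.2% (19.3 to 23.3%) had a deep-list region within 10 kb. The values for GFPplus replicates 1, 2 and 3 alone were 19.1%, 20.0% and 18.2% (17.1 to 19.3% for the last). The highest of these 4 values was that of GFPminus replicate 3, and whether the fractions differ was not tested.

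No more than 3 deep-list regions lay within 10 kb of any GFPminus-only region, and 11 GFPminus-only regions had 3. The strongest of these was on chromosome 5 at 6399901 to 6400174, with pileups of 37, 34 and 12 fragments in GFPminus replicates 1, 2 and 3. Its deep-list neighbours at 6402612 to 6402788 had 15 and 18 fragments in GFPminus replicates 1 and 2, those at 6409081 to 6409266 had 12 and 11, and those at 6409872 to 6410111 had 9 and 11. All 3 neighbours were on the same side of it, and the GFPminus-only region was taller than each in both libraries.

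The next such region lay on chromosome 7 at 66434224 to 66434887, with 39, 46 and 14 fragments, where the local background was high (6.70 fragments in GFPminus replicate 1). Its neighbours began at 66427935, 66438309 and 66442467 and had 10, 28 and 15 fragments in GFPminus replicate 1. The last was on chromosome 14 at 32909023 to 32909449, with 24, 28 and 10 fragments. Its neighbours began at 32899427, 32911276 and 32917955 and had 12, 16 and 21 fragments in GFPminus replicate 1. In these places, too, the neighbours were lower than the GFPminus-only region in GFPminus replicate 1, and they lay on both sides of it.

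The 3 closest pairs had midpoints 339, 344 and 348 bp apart, with only a short stretch of uncalled sequence between them. On chromosome 13 a deep-list region at 871526 to 871687, with 11 and 14 fragments in GFPminus replicates 1 and 2, was followed at 871806 to 872085 by a GFPminus-only region with 13, 11 and 13 fragments in GFPminus replicates 1, 2 and 3. On the same chromosome, one at 53236214 to 53236429 with 12 and 9 fragments stood beside a GFPminus-only region at 53236503 to 53236828 with 15, 13 and 5 fragments. On chromosome 18, one at 20060097 to 20060319 with 17 and 18 fragments stood beside a GFPminus-only region at 20059676 to 20060044 with 21, 13 and 12. In the first and the last of these pairs the deep-list region was the taller in GFPminus replicate 2.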

How the data were processed

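ATAC-seq peak lists of 6 libraries (3 GFPminus, 3 GFPplus) were analysed. Per the submitters' processing notes, the build was Zv9 (danRer7) and the tools were MACS2, deepTools, Bowtie2 2.1.0 and cutadapt 1.3; their settings were not given in the sources used here. Per the file headers, each deposited list stands for 1 library. Each peak carries the authors' fold (a ratio over the caller's background), −log10 p, −log10 q and score, the last of which was not used. The lowest deposited −log10 q was 1.30 to 1.31 in every list.

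Regions, ranks and distances between midpoints were computed with Python 3.11.15, NumPy 2.4.6 and pandas 2.3.3, and intervals with SciPy 1.17.1. Pileups rest on the relations fold = (pileup + 1) / (rate + 1) and p = the Poisson chance of more fragments than the pileup, at the same rate. For each whole pileup the fold gives a rate, and the deposited −log10 p picks the pileup. It was returned within 0.001 for all but 12 of 454383 peaks, and for each of the 27002 peaks in deep-list regions. The background rate came from the commonest fold values, which are whole multiples of 1 step. That MACS2 wrote its values this way is inferred from this fit. Merging, distances and pileup recovery were tested on simulated data.

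No test was run: the rule rests on 2 libraries of 1 fraction, and regions are not replicates. Nothing says whether same-numbered libraries share an occasion. Groups come from the labels, and the regions, classes and comparisons were chosen with earlier results of these data known. Items were named by rank: the 5 strongest regions, 3 windows with most regions, 3 GFPminus-only regions with most neighbours and 3 closest pairs; ties went to the higher summed −log10 p, and the window on chromosome 4 was named after its values were seen. Intervals cover counting error only. Genes and sequences were not analysed here: no genome of this build was used. Coordinates are 1-based.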

Additional observations from a re-analysis of the deposited data

How the results depend on the processing

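Regions without a call in a shallow library may still be open there, and whether depth accounts for the missing calls was not tested. The number of deep-list regions depended on the peak threshold. Their number, 13402, was 5701 with a −log10 q of at least 5, 3288 with a fold of at least 5, and 1664 with every list shortened to its best 33437 peaks. Peaks were filtered before merging, so regions that lost weaker peaks of other lists could newly meet the rule. With whole lists, 1928 of the 13402 had both strongest peaks at that −log10 q and 804 had both at that fold. Both were among the best 33437 peaks in 574. Leaving out a library relaxes the rule, and the number was 14293 to 48916, highest without GFPminus replicate 2 and 45979 without GFPminus replicate 1, where 1 call is enough. The median percentile of 41.3 became 36.7 with the −log10 q filter, 34.5 with the fold filter and 29.0 at equal length, and it was 30.9 to 44.0 without 1 library. The share within 10 kb of a GFPminus-only region, 3.75%, was 5.17%, 4.84% and 10.6% among the regions that met the rule under these 3 filters. All union regions then had 2.71%, 2.91% and 4.75%. The share of the deep-list regions was 1.87% within 5 kb and 16.0% within 50 kb. Without 1 library it ranged from 3.43% (without GFPminus replicate 1, against 3.36% of all union regions) to 6.40% (without GFPplus replicate 2, against 4.89%); without GFPminus replicate 3 the deep-list and the GFPminus-only rule become the same, so no share was computed. The share near a GFPplus-only region, 3.17%, was 2.77% with the −log10 q filter, 1.68% within 5 kb and 14.4% within 50 kb. Without 1 library it was 3.91% to 6.00%, with 5.73% without GFPplus replicate 2 and 6.00% without GFPplus replicate 3 (all union regions 7.14% and 7.11%). In each of the 15 alternatives run for a share, it stayed above that of all union regions for GFPminus-only neighbours and below it for GFPplus-only neighbours. For GFPminus-only neighbours the margin was narrowest without a deep GFPminus list. The shares were 3.43% against 3.36% without GFPminus replicate 1, and 3.66% against 3.47% without GFPminus replicate 2. Widened summits, a 50% overlap, joined gaps, numbered chromosomes, distances between edges and ranks by fold moved no value beyond its interval, its spread between the 2 libraries or 1.5 times its count. The cause was not tested. No paired analysis was possible because the rule uses 2 libraries of 1 fraction and no test was run.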
